A study of Mus musculus with 6 samples.

Results

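The nebulin family in these data is the group of 4 genes *Neb*, *Nrap*, *Nebl* and *Lasp1*, chosen by symbol out of the 55357 genes in the count files. All 4 passed the filter on low counts and were among the 21876 genes tested. *Neb* was chosen because it was higher after knockdown of *Pla2g4e*, so its values are given as a description, without a test. The other 3 genes were chosen as its relatives, and the question asked of them was whether they changed as *Neb* did. The data are 6 poly(A) RNA-seq libraries of primary neuronal cultures prepared from the cortex and hippocampus of wild-type C57BL/6N mouse embryos at E18. All cultures were transduced with a lentivirus at day in vitro (DIV) 4 and collected at DIV14. In 3 libraries the virus carried a scrambled hairpin (shCtrl) and in 3 it carried sh2, a single hairpin against *Pla2g4e* (sh*Pla2g4e*), so that every group had received virus and a hairpin. *Pla2g4e* encodes a calcium-dependent N-acyltransferase that makes precursors of N-acylethanolamines.

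Nebulin repeats are short actin-binding modules, and the 4 proteins hold very different numbers of them. Nebulin, the product of *Neb*, is a giant protein that lies along the thin filament of skeletal muscle and takes part in setting its length and stability. N-RAP, the product of *Nrap*, carries a LIM domain and is known from muscle, where it takes part in the assembly of myofibrils and sits at the junctions through which they pull on the membrane. Nebulette, the product of *Nebl*, is best known from the Z-discs of heart muscle, and the gene also encodes a shorter form with a LIM domain. *Lasp1* encodes a small LIM and SH3 protein of many tissues, the brain among them, that binds actin and is found at focal adhesions and in the leading edges of cells. The longest coding transcripts in GENCODE vM21 had 7152 codons for *Neb*, 1728 for *Nrap*, 1014 for *Nebl* and 263 for *Lasp1*.

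The hairpin used for the knockdown is a sequence of its own, and bases 2 to 8 of a guide (its seed) can pair with transcripts other than the target. The sh2 guide and its target are therefore shown first, with the seed and its match in capitals. Windows of 27 bases around some of the matches in the family's transcripts follow, in which the capitals mark GTGGCCA.
sh2 guide: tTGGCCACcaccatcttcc
sh2 target in Pla2g4e: ggaagatggtgGTGGCCAa
Lasp1, 3′ UTR, nucleotide 1815: cacacctaggGTGGCCAgggagcgccc
Neb, coding, nucleotide 3753: ttacatgaatGTGGCCAagatacagtc
Neb, coding, nucleotide 5217: ctacatgaatGTGGCCAaaatacaatc
Neb, coding, nucleotide 8142: gtccatgcacGTGGCCAagatccagag
Nrap, coding, nucleotide 1973: ttctctgcagGTGGCCAagatgagcag
The match was looked for on the transcribed strand of the longest coding transcript of each gene. In the 3′ UTR, the part of a transcript where guide seeds are best known to act, *Lasp1* held 1 match in 2519 bases, and *Neb*, *Nrap* and *Nebl* held none. Among all tested genes 11.8% of 3′ UTRs held the match, and among the 1810 of 2000 to 3000 bases 19.9% did. In the coding sequence *Neb* held 8 matches and *Nrap* 3, which came to 3.73 and 5.78 per 10 kb against 1.85 over all tested genes, while *Nebl* and *Lasp1* held none there. The *Neb* window at nucleotide 8142 occurred 4 times, letter for letter, at 8142, 9600, 10329 and 11787. These copies lay 486, 243 and 486 codons apart. Not all matches are printed above. Those of *Nrap* at nucleotides 1032 and 2966 and of *Neb* at 6063 are left out. After GTGGCCA they continue differently from the *Neb* windows shown. Each match is a description of the letters only.

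*Pla2g4e* itself was measured at 38.0, 35.1 and 35.4 CPM (CPM is a count relative to the TMM-scaled total of its library) in the shCtrl libraries. In the sh*Pla2g4e* libraries it was measured at 21.8, 14.1 and 18.7 CPM, lower in all 3 than in any control library (log2 fold change -0.99, standard error 0.13, edgeR adjusted p = 1.24e-04). The libraries held 20387986 to 22561667 counted reads in shCtrl and 17054717 to 23570180 in sh*Pla2g4e*. The 10 markers listed for neurons, the labelled cell type, each had a mean of at least 1 CPM in shCtrl, and so did the 7 listed for astrocytes and the 7 for the oligodendrocyte lineage. In bulk RNA, fewer cells of a type and less RNA per cell cannot be told apart. Over all tested genes, 6.49% passed an adjusted p of 0.01 in edgeR's quasi-likelihood test, 2.48% as higher and 4% as lower in sh*Pla2g4e*, and the median log2 fold change was 0.03. The same threshold was passed by 6.53% in limma after voom (2.3% higher, 4.23% lower) and by 11.6% of the genes with an adjusted p in DESeq2 (4.2% higher, 7.42% lower). An unadjusted p of 0.05 in edgeR was passed by 25.7% of all tested genes, 12.8% as higher and 12.9% as lower, and counts at that p are to be read against these shares.

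*Neb* was low in control cultures and about 5.80 times higher after the knockdown. The gene is on chromosome 2, minus strand (GRCm39, chr2:52026659-52268486, ENSMUSG00000026950), with 26675 bases of exon in the annotation used for counting. The 3 shCtrl libraries held 183, 177 and 184 reads of *Neb*, and the 3 sh*Pla2g4e* libraries held 1320, 1084 and 790. On the CPM scale these were 8.88, 8.91 and 8.17 against 55.2, 50.1 and 45.1, or 8.65 ± 0.418 and 50.2 ± 5.04 (mean and SD, n = 3 each). The control libraries were nearly level, every knockdown library stood far above them, and the groups did not overlap. The log2 fold change was 2.54, which ranked 374 from the top among the 21876 genes. Between libraries of the same replicate number, the ratio was 6.22, 5.63 and 5.52.

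*Nrap*, a relative known from muscle, rose. It is transcribed from the minus strand of chromosome 19 (chr19:56308467-56378469, ENSMUSG00000049134, 5507 bases of exon). It had 64, 19 and 11 reads in the shCtrl libraries and 257, 231 and 140 in the sh*Pla2g4e* libraries. On the CPM scale this was 3.10, 0.956 and 0.488 against 10.75, 10.7 and 7.999, with means of 1.52 ± 1.40 and 9.81 ± 1.57 (SD, n = 3). The groups did not overlap, but unlike *Neb* the control libraries differed among themselves, the first holding several times the level of the others. The log2 fold change was 2.704 with a standard error of 0.39 and a 95% interval of 1.87 to 3.54, that is, a fold of 3.66 to 11.6 (edgeR, adjusted p = 2.61e-04). Leaving out shCtrl replicate 1 gave a log2 fold change of 3.78, and leaving out any other library gave 2.27 to 2.83, with the call kept each time (highest adjusted p = 0.00347).

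*Nebl* did not pass the test, and its interval left no room for a rise of the size seen in *Nrap*. It is also on chromosome 2, minus strand (chr2:17348720-17736275, ENSMUSG00000053702, 15235 bases of exon) and was well covered, with 1195 to 1753 reads per library. Its CPM was 70.9, 69.8 and 77.8 in shCtrl and 62.2, 55.3 and 79.8 in sh*Pla2g4e*, or 72.8 ± 4.36 and 65.7 ± 12.7 (SD, n = 3). The groups overlapped, since the third knockdown library was the highest of all 6 and the other two were the lowest. The log2 fold change was -0.15 with a standard error of 0.11 (edgeR, adjusted p = 0.452). Its 95% interval, -0.39 to 0.088, runs from a fold of 0.764 to 1.06 and lies well below the interval of *Nrap*. Without sh*Pla2g4e* replicate 3 the log2 fold change of *Nebl* was -0.31 (edgeR, adjusted p = 0.0353). Without any other library it was -0.18 to -0.04.

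*Lasp1*, the most abundant member, was lower in the knockdown libraries. It is on chromosome 11, plus strand (chr11:97689826-97729590, ENSMUSG00000038366, 6495 bases of exon), with 3114 to 4768 reads per library. Its CPM was 231.3, 230.15 and 203.4 in shCtrl against 187.4, 160.85 and 177.9 in sh*Pla2g4e*, or 221.6 ± 15.8 against 175.4 ± 13.5 (SD, n = 3). No knockdown library reached the lowest control library. Such a gap downward was found in 14.6% of all tested genes, the gap upward of *Neb* and *Nrap* in 15.5%, and either in 30%. The log2 fold change was -0.34 with a standard error of 0.085 and a 95% interval of -0.52 to -0.16, a fold of 0.698 to 0.897. At adjusted p = 0.0153 in edgeR it did not pass the threshold of 0.01. It passed with the replicate number as a block (adjusted p = 3.53e-05), in a fit in which 15.5% of all tested genes passed, 6.5% as higher and 9.02% as lower, and with DESeq2 (adjusted p = 0.0019). In limma after voom it did not (adjusted p = 0.0110).

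**Figure D1:**
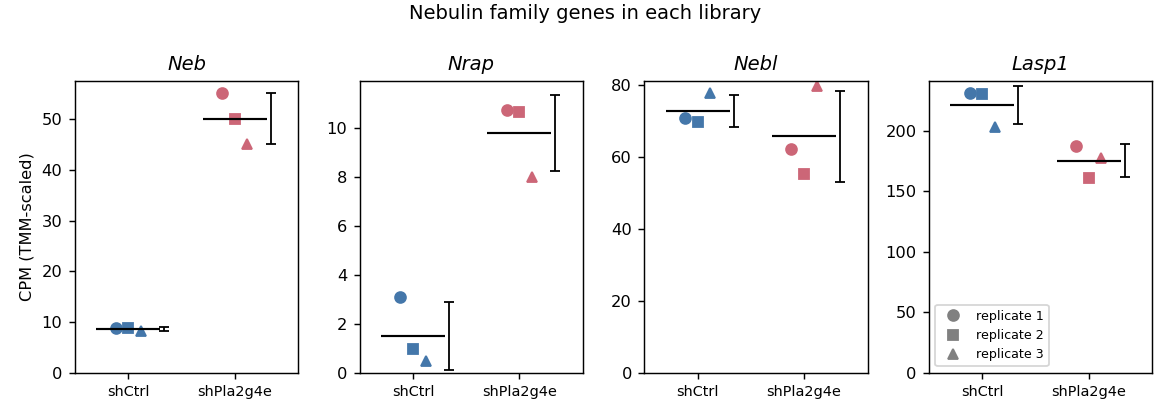
TMM-scaled CPM (vertical axis, from 0) of the 4 nebulin family genes in each of the 6 libraries, with 1 panel for each gene. Points are libraries, with the shape giving the replicate number, horizontal lines are group means and error bars are SDs (n = 3). *Neb* and *Nrap* stand higher in all sh*Pla2g4e* libraries, *Nebl* overlaps between groups and *Lasp1* stands lower.

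Of the 3 relatives of *Neb*, then, 1 was called higher and 0 were called lower by edgeR at an adjusted p of 0.01, beside 2.48% and 4% of all tested genes. At an unadjusted p of 0.05, *Lasp1* was lower too, as were 12.9% of all. DESeq2 called *Nrap* higher and *Lasp1* lower (4.2% and 7.42% of all), and limma after voom called only *Nrap* (2.3% and 4.23%). With the replicate number as a block, *Nrap* was called higher and *Lasp1* lower, beside 6.5% and 9.02% of all. The balance between relatives within a library does not depend on how libraries are scaled, so it was compared for the 3 pairs that leave *Neb* out, as log2 ratios of levels per kb of exon. The ratio of *Nebl* to *Nrap* was 3.04, 4.72 and 5.85 in shCtrl and 1.06, 0.903 and 1.85 in sh*Pla2g4e*, a difference of -3.27 (exact permutation test, two-sided, p = 0.1, adjusted over 3 pairs 0.15). The ratio of *Lasp1* to *Nrap* was 5.98, 7.67 and 8.46 against 3.89, 3.67 and 4.24, a difference of -3.44 (exact permutation test, p = 0.1, adjusted 0.15). With 3 libraries a group, 0.1 is the smallest p that this test can give, and in both pairs the groups did not overlap. The ratio of *Nebl* to *Lasp1* was -2.83 ± 0.189 against -2.66 ± 0.238 (SD, n = 3), a difference of 0.17 with overlapping groups (exact permutation test, p = 0.5, adjusted 0.5). Between libraries of the same number it was higher in sh*Pla2g4e* by 0.11, 0.18 and 0.23, which the unpaired test does not use and which is given here without a test.

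Levels of different genes can be set side by side only per length, here as CPM per kb of exon. In shCtrl the order was *Lasp1* (34.1 ± 2.43), *Nebl* (4.78 ± 0.286), *Neb* (0.324 ± 0.0157) and *Nrap* (0.275 ± 0.253), with SDs over 3 libraries. *Neb* and *Nrap* did not differ beyond their spread, since *Nrap* was above *Neb* in 1 control library, at 0.564, and below it in the others, at 0.174 and 0.0887. In sh*Pla2g4e* the levels per kb were 27.0 ± 2.07 for *Lasp1*, 4.32 ± 0.832 for *Nebl*, 1.88 ± 0.189 for *Neb* and 1.78 ± 0.285 for *Nrap*. The order was thus the same, and again the last pair overlapped. That overlap depends on the length used. The longest coding transcript of *Neb* had 22489 bases against 26675 of exon, and that of *Nrap* 5501 against 5507. For *Nebl* and *Lasp1* it had 8079 against 15235 and 3540 against 6495. Among all tested genes ranked by this level, *Neb* stood at percentile 25.2 in shCtrl and 46.7 in sh*Pla2g4e*, and *Nrap* at 23.2 and 46. *Nebl* stood at 61.9 and 60.0, and *Lasp1* at 94.0 and 92.1. So *Neb* and *Nrap* stood near the middle of the tested genes in sh*Pla2g4e* and were below *Nebl* in both groups.

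**Figure D2:**
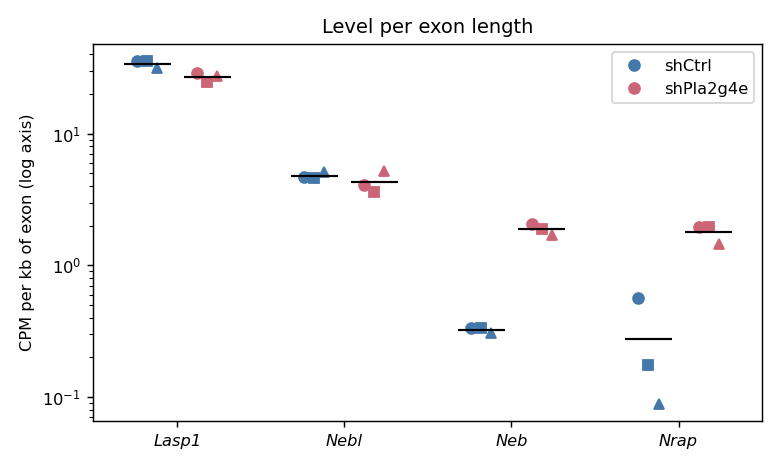
CPM per kb of exon (log axis) of the 4 genes in shCtrl and sh*Pla2g4e* libraries. Points are libraries, with the shape giving the replicate number as in the plot of CPM by library, and lines are group means. *Neb* and *Nrap* lie together at the bottom in both groups, at means of 0.324 and 0.275 in shCtrl and 1.88 and 1.78 in sh*Pla2g4e*.

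Summed over the family, the level per kb was 36.8 to 41.2 in shCtrl and 32.2 to 37.0 in sh*Pla2g4e*, so the ranges met, while each sh*Pla2g4e* library differed from the shCtrl library of the same number by -4.202, -8.31 and -1.05. *Lasp1* made up 86.3% ± 1.203 of that sum in shCtrl and 77.2% ± 0.797 in sh*Pla2g4e* (SD, n = 3). The share of *Neb* was 0.821% ± 0.0118 and 5.39% ± 0.582, and that of *Nrap* was 0.680% ± 0.605 and 5.12% ± 0.990. *Nebl* held 12.2% ± 1.48 and 12.3% ± 2.02. *Lasp1* therefore remained the main source of family transcripts in both groups.

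Reads could have been passed between genes, because the counting used no strand. No exon base of the 4 genes overlapped a gene on the same strand. On the other strand, 6.83% of the exon bases of *Nrap* overlapped *Habp2* and Gm17197, which had 0 to 4 and 0 to 1 reads per library. For *Neb* the overlap was 0.169%, with Gm13522. Of the 50-base stretches of the longest coding transcripts, 0.0267% occurred in other genes for *Neb*, 0.199% for *Nebl*, 3.35% for *Lasp1* and 5.06% for *Nrap*. Within *Neb*, 4.36% of stretches occurred more than once.

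The nearest tested genes were read for whether they changed along with *Neb*. *Rif1*, a factor of replication timing and DNA repair 14264 bases away, was measured at 37.2, 36.3 and 38.5 CPM in shCtrl and 35.6, 37.1 and 37.6 in sh*Pla2g4e*, with a log2 fold change of -0.02 (edgeR, adjusted p = 0.911). Beyond it *Tnfaip6*, which encodes a secreted hyaluronan-binding protein, rose from 2.43, 2.32 and 1.38 CPM to 12.5, 14.8 and 5.999 (log2 fold change 2.46, edgeR adjusted p = 5.42e-05). Gm13522, which overlaps *Neb* on the other strand, had 0, 1 and 1 reads in shCtrl and 6, 6 and 16 in sh*Pla2g4e*. It passed the filter on low counts only through sh*Pla2g4e*, the group where it was higher. Its log2 fold change of 3.67 is therefore given as a description, without a test. The interval of *Rif1*, next to *Neb*, was -0.21 to 0.16, and that of *Tnfaip6*, 79961 bases from *Neb*, was 1.83 to 3.10. On the other side *Arl5a*, a small GTPase gene 19477 bases away, fell from 76.3, 70.4 and 75.2 CPM to 53.7, 54.5 and 53.8 (log2 fold change -0.45, edgeR adjusted p = 0.00109). *Nmi* (-0.14, adjusted p = 0.902) and A430018G15Rik (0.51, adjusted p = 0.736) did not pass in edgeR and had few reads. Around *Nrap*, *Nebl* and *Lasp1*, 0 of the 6 nearest tested genes of each passed an adjusted p of 0.01 in edgeR, limma after voom or DESeq2. At an unadjusted p of 0.05 edgeR had 4, 1 and 2 of them, beside 25.7% of all tested genes, and with the replicate block 3, 0 and 2 passed, beside 15.5%.

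**Figure D3:**
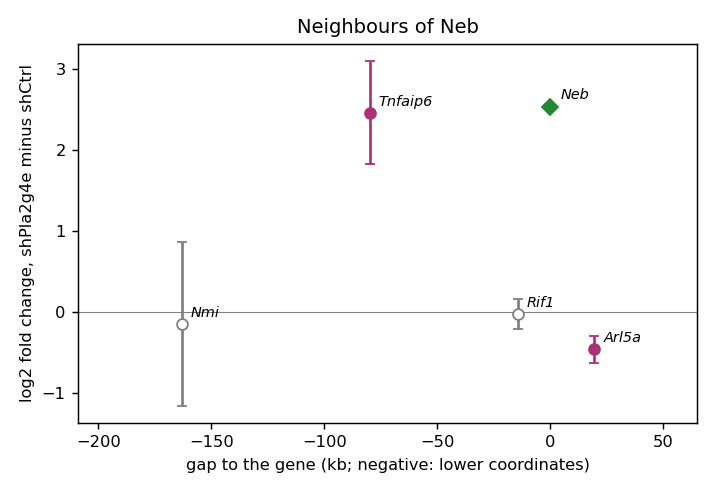
Log2 fold change, sh*Pla2g4e* minus shCtrl, of *Neb* (diamond at 0) and of its nearest tested genes with a mean of at least 0.5 CPM in shCtrl, against the gap between the genes in kb. Bars are 95% intervals and filled circles passed an adjusted p of 0.01 in edgeR. *Tnfaip6* stands near *Neb* in size, with *Rif1* near 0 between them. Gm13522 and A430018G15Rik, below that level, are not drawn.

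The partners of the family were taken from lists of genes by function. Of 18 genes for actins, tropomyosins and troponins, which form the filament that nebulin repeats bind, 15 were tested. edgeR called 0 higher and 2 lower, beside 2.48% and 4% of all tested genes, and the median log2 fold change was 0.16 beside 0.03 for all. At an unadjusted p of 0.05, 3 were higher and 3 lower, beside 12.8% and 12.9% of all. Limma after voom called 0 higher and 3 lower (2.3% and 4.23% of all), DESeq2 1 and 3 (4.2% and 7.42%) and the replicate block 2 and 3 (6.5% and 9.02%). The tropomyosin gene *Tpm3* fell from 164.2 ± 5.70 to 112.3 ± 7.09 CPM (log2 fold change -0.55). The gene of beta-actin, *Actb*, fell from 1084 ± 87.2 to 779.2 ± 27.7 CPM (-0.48), a call that was lost without shCtrl replicate 2 (edgeR, adjusted p = 0.0209) or sh*Pla2g4e* replicate 1 (adjusted p = 0.0104). The troponin genes were at or below 7.26 CPM in every library.

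Of 16 genes that cap filaments, set their length or turn them over, with the Kelch proteins that stabilise nebulin, 15 were tested and the other one, *Lmod2*, had 0 reads. edgeR called 0 higher and 3 lower, beside 2.48% and 4% of all tested genes. At an unadjusted p of 0.05 it had 3 higher and 3 lower (12.8% and 12.9% of all). Limma after voom (2.3% and 4.23%) and DESeq2 (4.2% and 7.42%) both called 0 higher and 3 lower. The median was 0.02. Those called were *Dstn*, the actin-severing protein destrin (294.3 ± 5.39 to 205.6 ± 5.58 CPM, log2 fold change -0.52), and the tropomodulin genes *Tmod3* (-0.44) and *Tmod2* (-0.42), which cap the pointed end. Leaving out 1 library ended the call of *Tmod3* in 5 of 6 fits (highest adjusted p = 0.0354 in edgeR) and that of *Tmod2* in 4 of 6 (highest 0.0369). *Tmod3* kept its call only without sh*Pla2g4e* replicate 3 (adjusted p = 7.13e-04). *Tmod2* kept its call only without shCtrl replicate 3 (8.19e-04) or sh*Pla2g4e* replicate 1 (0.00966).

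Of 25 genes of Z-discs and adhesions, 22 were tested, and *Myoz3* had 0 reads. edgeR called 2 higher and 0 lower, beside 2.48% and 4% of all tested genes, with 9 higher and 4 lower at an unadjusted p of 0.05, which 12.8% and 12.9% passed. The 9 include *Csrp3*, which passed the filter on low counts only through sh*Pla2g4e*, the group where it was higher. Limma after voom called 1 in each direction (2.3% and 4.23% of all), DESeq2 called 3 higher and 1 lower (4.2% and 7.42%), and the replicate block called 5 higher and 3 lower (6.5% and 9.02%). The median log2 fold change was 0.25. It counts *Csrp3*, which had 0 reads in shCtrl and 18 in sh*Pla2g4e*, and without that gene it would be 0.19. *Xirp1*, which encodes an actin-binding Xin repeat protein of muscle junctions, rose from 7.28, 4.03 and 1.69 CPM to 25.01, 22.0 and 9.14 (log2 fold change 2.13, edgeR adjusted p = 0.00141). Its groups did not overlap, and it lost its call without shCtrl replicate 2 (adjusted p = 0.0124) and in DESeq2 (adjusted p = 0.0190). Without shCtrl replicate 1 its log2 fold change was 2.74, and without any other library it was 1.73 to 2.45. *Fhl2*, a LIM-only gene, was measured at 12.4 ± 1.08 and 18.6 ± 2.88 CPM (0.58, edgeR adjusted p = 0.00989), a call that was kept without sh*Pla2g4e* replicate 2 (0.00393) and lost without any of the other 5 libraries (0.0132 to 0.0507), and in limma after voom (0.0138). The giant titin gene *Ttn* had a log2 fold change of 0.58 (edgeR, adjusted p = 0.0637).

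Markers of skeletal muscle were read over a list of 24 genes, of which 17 were tested. edgeR called 1 higher and 0 lower, beside 2.48% and 4% of all tested genes, with 5 higher and 0 lower at an unadjusted p of 0.05, beside 12.8% and 12.9%. Limma after voom (2.3% and 4.23% of all) and DESeq2 (4.2% and 7.42%) each called the same counts, 1 and 0. The median log2 fold change was 0.57. The gene called was *Ryr1*, the calcium release channel of the sarcoplasmic reticulum, which is also known from neurons, and it rose from 22.0, 21.5 and 19.4 CPM to 40.5, 39.2 and 35.2 (0.87, edgeR adjusted p = 3.24e-05). The summed level of the list was 34.8 to 37.8 CPM in shCtrl and 53.3 to 59.5 CPM in sh*Pla2g4e*, most of it *Ryr1*. Among the defining genes, *Myod1* had 0 reads in all 6 libraries. *Myog*, *Myf5*, *Myf6*, *Pax7* and *Ckm* had 0 reads in shCtrl and 1, 4, 4, 2 and 5 reads in sh*Pla2g4e*, counted over the 3 libraries. The fast and slow myosin heavy chain genes *Myh1*, *Myh2*, *Myh4* and *Myh7* were at or below 1.90 CPM in every library. The other myosin heavy chain genes listed, *Myh3* and *Myh8*, were at or below 2.05 and 2.51 CPM. Of the 17 tested genes of the list, 7 were higher in every sh*Pla2g4e* library than in any shCtrl library and 0 lower, beside 15.5% and 14.6% of all tested genes. By the same count the Z-disc and adhesion list had 9 of 22 higher and 3 lower, the filament end list 1 of 15 higher and 5 lower, and the actin, tropomyosin and troponin list 2 of 15 higher and 4 lower. In the muscle list the genes besides *Ryr1* were *Cacna1s* (0.886 and 1.99 CPM on average), *Casq1*, *Mybpc2*, *Mylpf*, *Mybpc1* and *Myh2*, of which the highest value in any library was 3.28 CPM. *Myh2*, with 4, 2 and 4 reads in shCtrl and 9, 12 and 6 in sh*Pla2g4e*, passed the filter only through sh*Pla2g4e*. Its place in that count was thus favoured by the filter. The part of muscle cells in the levels of *Neb* and *Nrap* was not tested.

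**Figure D4:**
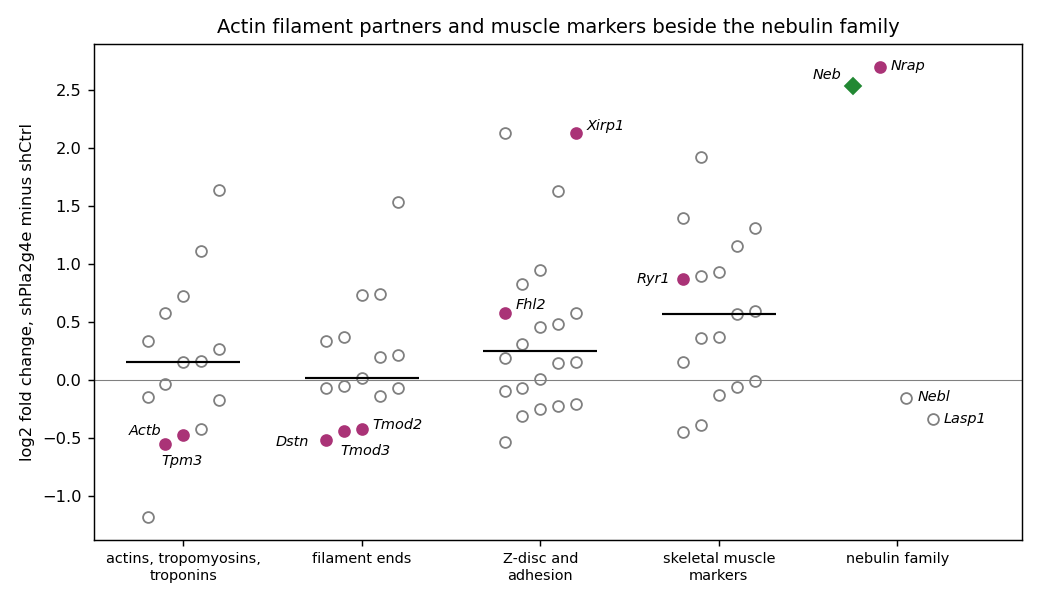
Log2 fold change, sh*Pla2g4e* minus shCtrl, of the tested genes of each list and of the nebulin family. Filled circles passed an adjusted p of 0.01 in edgeR, open circles did not, the diamond is *Neb*, shown without a test, and lines are list medians. *Csrp3*, with 0 reads in shCtrl, is not drawn. *Neb* and *Nrap* stand above every gene drawn, with *Xirp1* next among those that passed.

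Markers of neurons and astrocytes were called in part, and those of 3 other cell classes were not. Of 10 neuron markers edgeR called 2 higher and 3 lower, beside 2.48% and 4% of all, with 3 and 6 at an unadjusted p of 0.05 (12.8% and 12.9%), 2 and 3 in limma after voom (2.3% and 4.23%), 1 and 3 in DESeq2 (4.2% and 7.42%) and 3 and 4 with the replicate block (6.5% and 9.02%). The glutamate transporter gene *Slc17a7* had a log2 fold change of -1.31, the microtubule gene *Map2* of -0.45 and the neurofilament gene *Nefl* of 0.48. *Slc17a6*, the other vesicular glutamate transporter gene listed, was called higher (0.91, edgeR adjusted p = 0.00388). Its call was lost in 4 of 6 fits without 1 library and in DESeq2 (adjusted p = 0.0425). Over the neuron markers, leaving out 1 library gave 1 to 4 calls, the lowest when shCtrl replicate 2 was dropped and 3 when sh*Pla2g4e* replicate 1 or 2 was. The summed level of the neuron markers was 5814 to 6325 CPM in shCtrl and 4883 to 5403 in sh*Pla2g4e*. Of 7 astrocyte markers it called 0 higher and 3 lower (2.48% and 4% of all), with 1 higher and 4 lower at an unadjusted p of 0.05 (12.8% and 12.9%). There were 0 and 3 in limma after voom (2.3% and 4.23%), 0 and 2 in DESeq2 (4.2% and 7.42%) and 1 and 5 with the replicate block (6.5% and 9.02%). The water channel gene *Aqp4* had a log2 fold change of -1.19 and did not pass in DESeq2 (adjusted p = 0.0124), the connexin gene *Gja1* of -0.66 and the glutamate transporter gene *Slc1a2* of -0.50. Leaving out 1 library gave 1 to 5 calls, with 1 without sh*Pla2g4e* replicate 1 or 2, 2 without shCtrl replicate 1 or 2 and 5 without sh*Pla2g4e* replicate 3. Their summed level was 2551 to 3274 CPM and 1729 to 2739 CPM, ranges that overlap, with differences of -695.3, -1203 and -534.9 CPM between libraries of the same number. For the oligodendrocyte lineage (7 tested), microglia (5 of 6 tested) and vascular cells and fibroblasts (10 of 12 tested, *Kcnj8* and *Cldn5* at 0 reads), edgeR, limma after voom and DESeq2 each called 0. At an unadjusted p of 0.05 edgeR had 1, 3 and 2 of them, beside 25.7% of all tested genes, and with the replicate block 1, 0 and 2 passed, beside 15.5%. The 3 microglia markers include *P2ry12*, which passed the filter only through shCtrl, the group where it was higher. Without sh*Pla2g4e* replicate 3, 1 oligodendrocyte marker was called, and without sh*Pla2g4e* replicate 1, 2 of the vascular and fibroblast list. Their summed levels in shCtrl and sh*Pla2g4e* were 481.6 to 537.0 and 499.2 to 581.2 CPM for the oligodendrocyte lineage, 3.07 to 7.73 and 2.59 to 4.02 for microglia, and 45.4 to 52.2 and 45.4 to 63.0 for vascular cells and fibroblasts. The part of the cell makeup in the values of *Neb* and its relatives was not tested.

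The genes whose pattern over the 6 libraries was most like that of *Neb* were sought among 10883 genes whose log2 CPM averaged 3 or more, by the root mean square distance between centred log2 CPM values. The nearest were *Ecel1* (0.326), a neuronal membrane peptidase, *Pappa2* (0.335), a protease of insulin-like growth factor binding proteins, *Pdyn* (0.344), the precursor of dynorphins, Gm47163 (0.348) and *Car4* (0.377), a membrane-bound carbonic anhydrase. Their mean CPM was 14.8 and 77.3 for *Ecel1*, 12.6 and 51.7 for *Pappa2*, 6.97 and 25.5 for *Pdyn*, 13.3 and 50.3 for Gm47163 and 5.46 and 24.3 for *Car4*, in shCtrl and sh*Pla2g4e*. On the same measure *Nrap* was at 0.785 from *Neb*, *Nebl* at 1.37 and *Lasp1* at 1.44. These distances rest on the values for which *Neb* was chosen and restate the fold changes, and *Nrap*, with a mean log2 CPM of 1.75, was itself below the level set for the genes compared.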

How the data were processed

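The authors sequenced stranded poly(A) libraries (TruSeq), aligned reads with STAR 2.7.0d and counted reads per gene with featureCounts 1.6.0, and deposited raw counts, 1 file per library, on GENCODE release 28 and GRCm39 per the file headers. The headers show no option for strand, read pairs or reads with several matches, so reads from the other strand were not told apart. Symbols came from GENCODE vM21 by identifier (52081 of 55357 genes, and the 3276 others took 0.286% to 0.387% of reads). Guide sequences are those listed by the study, and transcript sequences are from GENCODE vM21, built on GRCm38.

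Genes that reached 6 reads in 1 or more libraries were tested in R 4.3.3 with edgeR 4.0.16 (TMM, glmQLFit, glmQLFTest, group only), with Benjamini-Hochberg adjustment over 21876 genes and a threshold of 0.01. CPM values carry TMM factors, and standard errors come from the F statistic. Alternatives were limma 3.58.1 after voom, which the study used, DESeq2 1.42.0 (no adjusted p for 5514 genes) and its size factors, library size alone, a minimum of 10 reads in every library or no minimum, the replicate number as a block, a 0.05 threshold and fits without 1 of the libraries.

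Libraries are numbered 1 to 3 in each group by the labels. Same-numbered libraries deviated together from their group means (r = 0.391, 0.189 and 0.459 over 10884 genes averaging 3 or more in log2 CPM), unlike those of different number (-0.391 to 0.106), so the numbers were taken as pairs. The fit given first has no block, and the permutation test did not use the pairs. Blocked values are given beside results they change. Differences between same-numbered libraries were added after the values were seen. Nothing says that replicates came from separate cultures, so p-values measure only the spread between these libraries, which may be technical. At these depths, counting error is small for *Nebl* and *Lasp1* and largest for *Nrap* in shCtrl.

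Groups came from the labels. The members and the lists (thin filament, filament ends, Z-disc and adhesion, skeletal muscle, and 5 lists of cell types) were chosen with earlier results of these data known. Genes named are the members, *Pla2g4e*, up to 3 called genes of a list with the smallest adjusted p, list members at 0 reads, the neighbours of *Neb* and the 5 genes most like it. *Ttn*, *Csrp3*, *Slc17a6*, *P2ry12*, the overlapping genes and the muscle genes given by level or for non-overlap were named after their values were seen. One further gene is not reported here.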

Additional observations from a re-analysis of the deposited data

How the results depend on the processing

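*Neb* kept its direction, and *Nrap* and *Nebl* their direction and side of the threshold, under every alternative run. Leaving out 1 library moved the log2 fold change of *Neb* between 2.46 and 2.61, of *Nrap* between 2.27 and 3.78, of *Nebl* between -0.31 and -0.04 and of *Lasp1* between -0.40 and -0.28. *Lasp1* crossed the threshold of 0.01 with no filter (-0.34, adjusted p = 0.00199), DESeq2 (-0.34, adjusted p = 0.0019), the replicate block (-0.34, adjusted p = 3.53e-05) and without shCtrl replicate 3 (-0.40, adjusted p = 0.00621), and passed a threshold of 0.05 (-0.34), and the cause was not tested. The block changed no other call of a member.

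Over all genes, 1419 were called, 2349 with no filter (32161 genes tested), 3395 with the replicate block, 2813 at 0.05 and 695 to 1613 with 1 library left out, the lowest without shCtrl replicate 2. The actin, tropomyosin and troponin list had 2 calls, 4 with no filter, 4 with DESeq2, 5 with the replicate block, 5 at 0.05 and 1 to 3 with a library left out (1 without sh*Pla2g4e* replicate 1). The filament end list had 3 calls, and 1 to 2 with a library left out. The Z-disc and adhesion list had 2 calls, 4 with library size alone, 6 with no filter, 1 with at least 10 reads in every library, 4 with DESeq2, 8 with the replicate block, 6 at 0.05 and 0 to 3 with a library left out. The 0 was without shCtrl replicate 2, where 13 had an unadjusted p under 0.05. The muscle list had 1 call, 2 at 0.05 and 1 each time a library was left out. Scaling by library size alone put the median of all genes at 0.10 in place of 0.03. Depth limits *Nrap* in shCtrl (11 to 64 reads) and the muscle markers near 0.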
